A study of Mus musculus with 6 samples.

Results

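The glutathione, thioredoxin and NRF2 antioxidant genes of the mouse lumbar spinal cord comprised 62 of the 52513 genes in the deposited expression table. They were picked out by gene symbol, from a list drawn up with earlier results of these data known. The symbols covered the glutathione peroxidases, the glutathione transferases, the peroxiredoxins, the superoxide dismutases, the thioredoxins with their reductases and the glutaredoxins. A further 11 single genes supply glutathione, belong to the NRF2 pathway or, as with catalase, remove peroxide. RNA was taken from the L4 and L5 segments in wild-type animals. Of the 6 libraries, 3 were from mice given intrathecal morphine, an opioid analgesic, at 10 µg in 10 µL for 7 days, and 3 from mice given intrathecal saline over the same 7 days. The labels state no strain, age or sex. In both groups they tag the libraries with runs of 3, 3 and 2 numbers, and do not say whether these are animals pooled into a library, so p-values measure only the spread between these libraries. The values are FPKM, fragments mapped to a gene scaled by transcript length and library size, a unit that corrects for length and depth, so levels of different genes are compared here per length. Of the 62 genes, 53 reached 1 FPKM in at least 3 of the 6 libraries and were tested among 14614 genes.

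These enzymes dispose of reactive oxygen species in successive steps. Superoxide dismutases turn superoxide into hydrogen peroxide, which catalase breaks down without glutathione or thioredoxin. Glutathione peroxidases and peroxiredoxins reduce peroxides by drawing electrons from glutathione or thioredoxin. Glutathione reductase and the thioredoxin reductases renew glutathione and thioredoxin at the expense of NADPH. The transcription factor NRF2 (Nfe2l2) is held in the cytoplasm and marked for degradation by KEAP1, and when oxidants or electrophiles modify KEAP1, NRF2 enters the nucleus and binds antioxidant response elements of its target genes. In the nervous system astrocytes are known for high NRF2 activity and for supplying neurons with glutathione precursors.

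The core letters of the antioxidant response element, TGACNNNGC, were searched on both strands in the RefSeq promoter table (build GRCm38.p6, 250 bases before to 50 after each annotated start), and no other motif was searched. Promoters were listed for 55 of the 62 genes, and Gclc, Gsr, Gsta4, Gstt2, Hmox1, Prdx6 and Sod3 had no entry. The core occurred at 10 of the 55 genes (18.2%), which were Gclm, Gsta3, Gstm5, Gstm7, Mgst1, Nfe2l2, Prdx1, Sod1, Srxn1 and Txnrd1. Counted by promoter it occurred in 10 of 73 (13.7%), against 4071 of all 32851 promoters (12.4%). Among tested genes it was present at 9 of 46 antioxidant genes (19.6%) and at 1752 of all 10421 genes with a promoter entry (16.8%). A match describes letters in this window only.

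The 250 bases before the start are shown for 4 genes, with the core in capitals where present. In Sod1, Txnrd1 and Prdx1 the core lies on the strand opposite to the one printed, so the capitals show its reverse complement. Sod1 and Txnrd1 both hold the core, and their groups lay apart in opposite directions in the results that follow (Gstm5, which also holds it and lay apart, is not shown), Prdx1 holds the core in the arrangement GCTGAGTCA, and Gstm1, one of the 2 genes that passed the test, holds none in either of its 2 promoters. On build GRCm38.p6 the stretches are chr16:90220512-90220761 on the plus strand for Sod1, chr10:82858956-82859205 on the plus strand for Txnrd1 (1 of 3 starts), chr4:116685349-116685598 on the plus strand for Prdx1 and chr3:108017974-108018223 on the minus strand for Gstm1. The first base in capitals, as printed, lies 56 bases before the start in Sod1, 92 in Txnrd1 and 133 in Prdx1.
Sod1: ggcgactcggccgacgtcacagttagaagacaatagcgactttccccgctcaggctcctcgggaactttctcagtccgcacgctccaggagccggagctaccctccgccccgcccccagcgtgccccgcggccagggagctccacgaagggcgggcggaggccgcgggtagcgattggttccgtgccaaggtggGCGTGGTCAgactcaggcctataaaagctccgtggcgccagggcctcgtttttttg
Txnrd1: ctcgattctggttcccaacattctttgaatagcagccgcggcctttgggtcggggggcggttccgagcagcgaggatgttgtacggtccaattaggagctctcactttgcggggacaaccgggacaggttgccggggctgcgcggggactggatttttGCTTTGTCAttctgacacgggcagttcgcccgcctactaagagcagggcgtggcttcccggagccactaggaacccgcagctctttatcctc
Prdx1: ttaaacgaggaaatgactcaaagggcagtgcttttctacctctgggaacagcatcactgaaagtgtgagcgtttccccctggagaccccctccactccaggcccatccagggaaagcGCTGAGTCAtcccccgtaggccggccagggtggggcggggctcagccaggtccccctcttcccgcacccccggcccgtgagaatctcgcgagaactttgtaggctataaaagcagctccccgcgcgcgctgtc
Gstm1: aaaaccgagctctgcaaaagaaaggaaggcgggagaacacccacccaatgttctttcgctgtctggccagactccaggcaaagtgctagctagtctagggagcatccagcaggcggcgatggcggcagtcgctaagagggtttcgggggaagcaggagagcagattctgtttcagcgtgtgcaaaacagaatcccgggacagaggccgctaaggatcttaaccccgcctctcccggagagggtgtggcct

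Depth was estimated from the step size of low FPKM values and came to about 19870000, 17830000 and 18570000 fragments in the morphine libraries 1 to 3, against 21460000, 26070000 and 21240000 in the saline libraries 1 to 3. The summed FPKM of all genes was 720234 to 741145 in morphine and 662470 to 670280 in saline, without overlap, so a level measured in FPKM and one measured as a share of this sum (TPM) do not move alike. Markers of oligodendrocytes, astrocytes, microglia and neurons were all detected. Choroid plexus markers summed to 1.6 to 2.6 FPKM in morphine and 2.2 to 2.9 FPKM in saline. Of these, Ttr did not exceed 0.15 FPKM, and Kl, the highest, stood at 0.97 to 1.63 FPKM. Red cell markers summed to 421.2 to 594.9 FPKM in morphine and 757.1 to 1077.4 FPKM in saline. Markers of motor and cholinergic neurons differed between libraries of one group, at 28.4 to 153.1 FPKM in morphine and 38.4 to 170.8 FPKM in saline. In bulk tissue, fewer cells of a type and less RNA per cell cannot be told apart.

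The 62 genes spanned almost the whole range of expression in the cord. Their means over the 6 libraries were under 1 FPKM for 10 genes, 1 to 10 FPKM for 16, 10 to 100 FPKM for 26 and over 100 FPKM for 10. The 6 with the highest means, Gpx4, Sod1, Gstp1, Prdx2, Prdx5 and Prdx6, held 51.0% to 55.5% of the summed FPKM of the 62 genes in each library. The 9 untested genes were Gpx2, Gpx5, Gpx6, Gsta1, Gsta2, Gsta3, Gstm3, Gstp3 and Gstt4. Gpx5, Gsta1 and Gstp3 were listed at 0 in all 6 libraries, Gsta3 lay between 0.54 and 1.14 FPKM, and the other 5 never exceeded 0.09 FPKM.

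**Figure D1:**
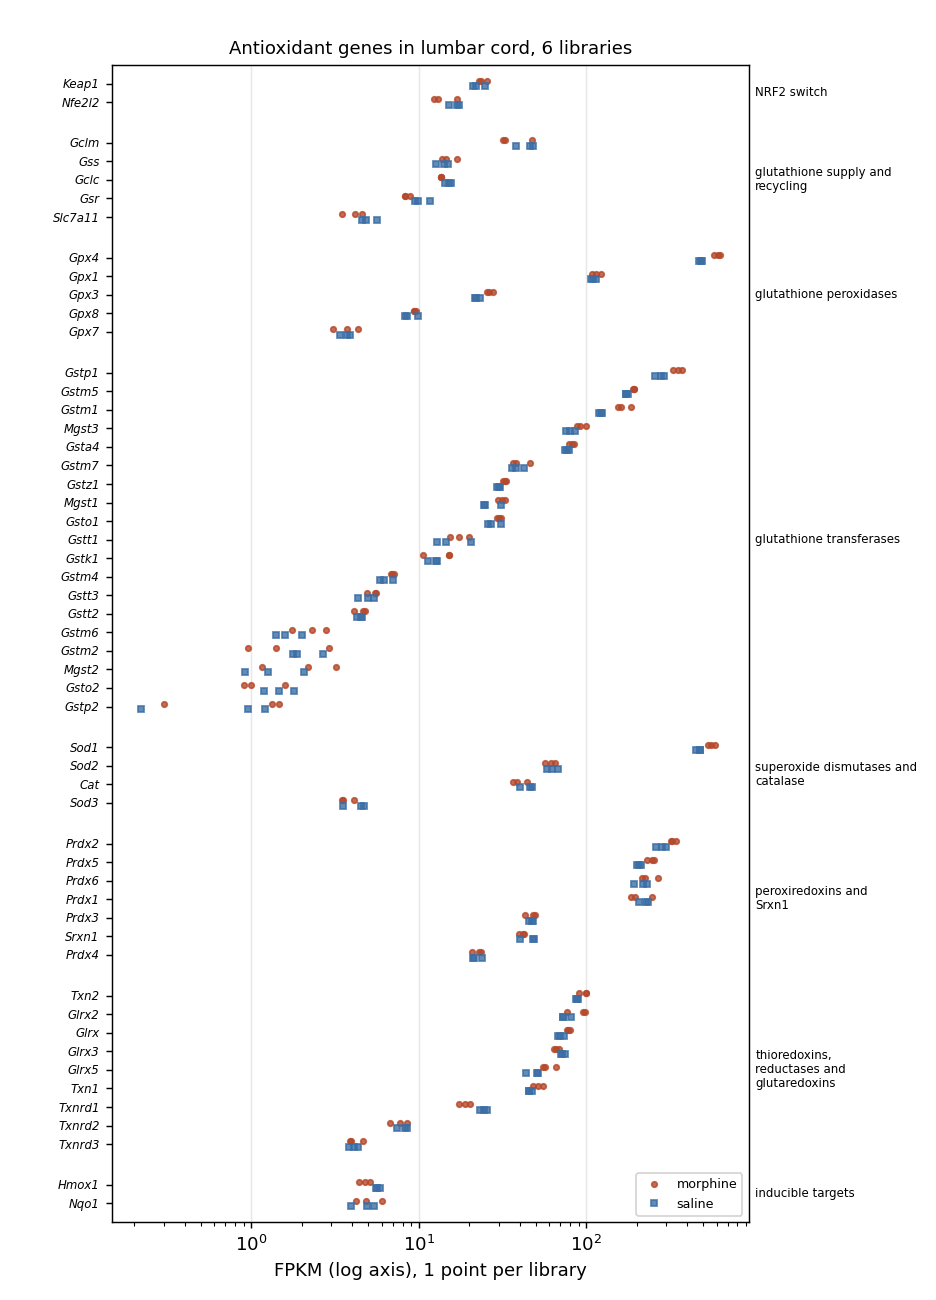
FPKM (log axis) of each of the 53 tested antioxidant genes by role, with 1 point per library and the 3 morphine libraries (circles) set just above the 3 saline libraries (squares). Levels run from under 1 FPKM for Gstp2 to 628 FPKM for Gpx4 in morphine. The groups lie apart in 19 of the 53 genes, beside 4191 of all 14614 tested genes (28.7%).

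Morphine was compared with saline to ask whether repeated intrathecal morphine was accompanied by a change in this defence system. Gpx4, the selenium enzyme that reduces lipid hydroperoxides in membranes, and Gstm1, a mu class glutathione transferase that conjugates electrophiles, were the 2 members that rose, and no member fell. This is 3.77% of the 53, beside 1.51% of all 14614 tested genes called in either direction, 0.944% higher and 0.561% lower (limma, Benjamini-Hochberg adjusted p under 0.05). Both calls were lost without any 1 of morphine 1, morphine 3 and the 3 saline libraries, when 0 members passed (8 to 13 higher and 1 or 2 lower at an unadjusted p under 0.05), and without morphine 2 there were 6, 5 higher and Txnrd1 lower. Over all tested genes 805 passed without morphine 2, against 220 with all 6 libraries. A p that misses the threshold does not show that a gene did not differ. At an unadjusted limma p under 0.05, 13 of the 53 were higher (24.5%, against 11.2% of all genes) and 3 were lower (5.66%, against 11.1%). All 3 morphine libraries lay above all 3 saline libraries in 14 members (26.4%, against 13.0% of all genes) and below them in 5 members (9.43%, against 15.7%). These 5 were Txnrd1, Gsr, Hmox1, Glrx3 and Gclc.

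The log2 fold change was above 0 in 36 of the 53 (67.9%), against 46.8% of all tested genes, with a median of 0.09 against -0.015 over all genes. As a share of all FPKM the difference was smaller. The summed FPKM of the 62 genes was 4199.9, 4300.5 and 4186.2 in morphine 1 to 3, against 3776.1, 3758.8 and 3653.8 in saline 1 to 3. That was 0.567%, 0.596% and 0.581% of the library total in morphine and 0.568%, 0.561% and 0.552% in saline, and these shares overlapped. Rescaled to TPM the median of the 53 was -0.03, against -0.13 over all tested genes, and 22 of the 53 were above 0.

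**Figure D2:**
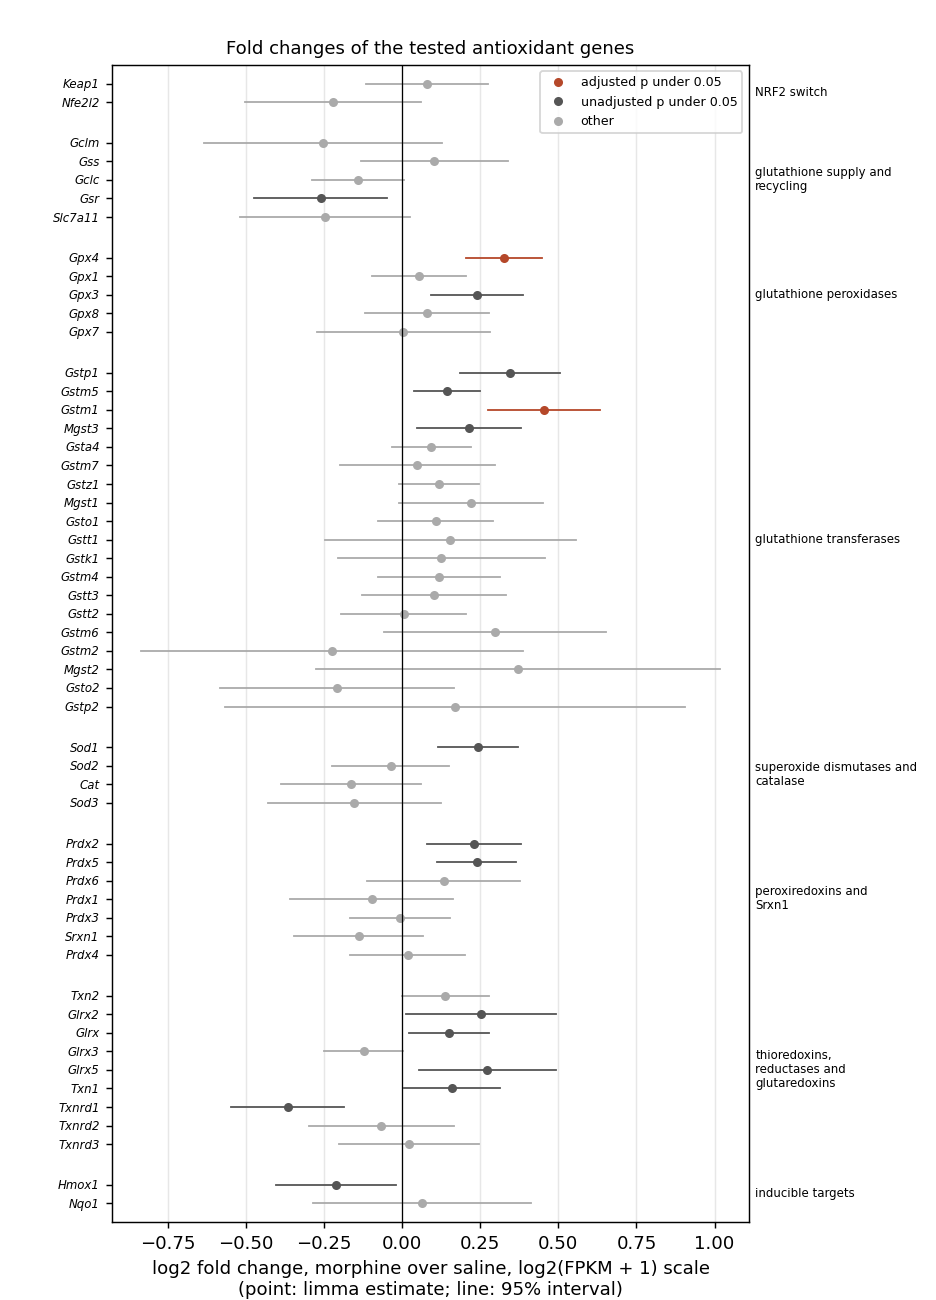
Log2 fold change of morphine over saline for the 53 tested genes (limma estimate with its 95% interval, on the log2(FPKM + 1) scale), grouped by role and ordered by level within a role. Red marks Gpx4 and Gstm1, which passed the adjusted threshold, dark grey marks the other genes at an unadjusted p under 0.05, and the lowest estimate is that of Txnrd1.

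The sensor pair of the pathway did not pass the test. Keap1, the adaptor that presents NRF2 for degradation, stood at 23.5, 22.8 and 25.7 FPKM in morphine and 22.0, 21.1 and 24.9 FPKM in saline, a log2 fold change of 0.08 with a limma adjusted p of 0.604. Nfe2l2, which encodes NRF2 itself, stood at 13.1, 16.9 and 12.4 FPKM in morphine and 17.4, 16.9 and 15.2 FPKM in saline, with a log2 fold change of -0.22 and an adjusted p of 0.326. Both genes overlapped between the groups, and for Nfe2l2 the morphine 2 library was as high as saline 2 while morphine 1 and 3 were the lowest of the 6. NRF2 is controlled mainly through its protein, which these data do not measure.

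The inducible targets were low in both groups. Hmox1, the heme oxygenase that opens the heme ring, stood at 4.41, 5.12 and 4.77 FPKM in morphine, against 5.60, 5.56 and 5.83 FPKM in saline, with every morphine library lower. Its log2 fold change was -0.21 with an adjusted p of 0.191, and its depth was 119 to 196 estimated fragments per library. Nqo1, a quinone reductase and a classic NRF2 target, stood at 4.81, 6.06 and 4.19 FPKM in morphine and 5.42, 4.93 and 3.91 FPKM in saline, with overlap and an adjusted p of 0.833.

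The genes that supply and recycle glutathione had a median log2 fold change of -0.245, the lowest of the 8 role groups. Of the 5 genes, 0 passed the adjusted threshold in either direction, and 1, Gsr, was lower at an unadjusted limma p under 0.05. Their summed level was 78.4 ± 10.7 FPKM in morphine and 88.4 ± 6.24 FPKM in saline (SD, n = 3 each). Gsr, the glutathione reductase, stood at 8.31, 8.87 and 8.22 FPKM in morphine, against 9.51, 11.7 and 9.94 FPKM in saline. All morphine libraries were below all saline libraries, with a log2 fold change of -0.26 and an adjusted p of 0.155.

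Gclm, the modifier subunit of glutamate-cysteine ligase that sets the rate of glutathione synthesis, was the most abundant of this group. It stood at 32.8, 47.2 and 31.8 FPKM in morphine and 46.0, 48.0 and 38.2 FPKM in saline, with an adjusted p of 0.398. The morphine 2 library was level with saline 1 and 2, so the groups overlapped. Gclc, the catalytic subunit, varied little, at 13.5 to 13.6 FPKM in morphine and 14.3 to 15.5 FPKM in saline, and did not overlap between groups, with an adjusted p of 0.247. Slc7a11, the cystine importer, stood at 3.49 to 4.61 FPKM in morphine and 4.60 to 5.64 FPKM in saline, with an adjusted p of 0.265. Gss, the glutathione synthetase, had a log2 fold change of 0.10 (adjusted p 0.582) with overlapping values, at 13.7, 16.9 and 14.5 FPKM in morphine and 14.2, 14.9 and 12.6 FPKM in saline.

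Gpx4 was the most abundant of the 62 genes and the one glutathione peroxidase that rose. Gpx4 (ENSMUSG00000075706, mm10 chr10:80047166-80056439, plus strand) stood at 579, 610.5 and 628 FPKM in morphine libraries 1 to 3, against 487, 494 and 468 FPKM in saline libraries 1 to 3. Every morphine library exceeded every saline library, and the means were 606 ± 24.7 FPKM in morphine and 483 ± 13.2 FPKM in saline (SD, n = 3 each). The log2 fold change was 0.33 with a standard error of 0.052, a 95% interval of 0.20 to 0.45 and a limma adjusted p of 0.0462. Rescaled to TPM it was 0.20 with an adjusted p of 0.0752, and the call was lost. Of the 50-base words of Gpx4 transcripts, 61.7% also occur in other annotated genes, chiefly processed copies such as Gpx4-ps2, so how reads were split among copies bears on its level.

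Gpx1, the main cytosolic glutathione peroxidase, stood at 108, 123 and 115 FPKM in morphine and 107, 115 and 110.5 FPKM in saline. The groups overlapped, with a log2 fold change of 0.05 (-0.07 in TPM) and an adjusted p of 0.658. Gpx3, the secreted enzyme, stood at 27.6, 26.4 and 25.7 FPKM in morphine, against 23.3, 22.1 and 21.6 FPKM in saline. It was higher in every morphine library, with a log2 fold change of 0.24 and an adjusted p of 0.0845. Gpx7 and Gpx8, which act in the endoplasmic reticulum, were below 10 FPKM, overlapped between groups and had adjusted p-values of 0.987 and 0.607. The 8 peroxidase genes summed to 761 ± 28.5 FPKM in morphine and 629 ± 16.0 FPKM in saline (SD, n = 3 each), and 1 of the 5 tested rose.

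Among the 25 glutathione transferase genes, which attach glutathione to electrophiles for export, 19 were tested, 1 rose and 3 more were higher at an unadjusted limma p under 0.05. Their summed level was 1077 ± 38.2 FPKM in morphine and 904 ± 16.0 FPKM in saline (SD, n = 3 each), and the median log2 fold change of the 19 was 0.13 (0.01 in TPM). Gstm1 (ENSMUSG00000058135, mm10 chr3:108012255-108017973, minus strand) stood at 186, 162 and 154 FPKM in morphine 1 to 3, against 122, 124 and 118.5 FPKM in saline 1 to 3. The lowest morphine library exceeded the highest saline library, and morphine 1 was the highest of all. The means were 167 ± 16.5 FPKM in morphine and 122 ± 2.97 FPKM in saline (SD, n = 3 each), a ratio of 1.38. The log2 fold change was 0.45 with a standard error of 0.076, a 95% interval of 0.275 to 0.63 and a limma adjusted p of 0.0465. In TPM it was 0.33 with an adjusted p of 0.0424.

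Gstp1, the pi class transferase and the most abundant of the family, stood at 351, 371 and 329 FPKM in morphine, against 289.9, 279 and 258 FPKM in saline. The groups did not overlap, and the log2 fold change of 0.345 missed the threshold with an adjusted p of 0.0555. Of its 50-base words, 62.3% are shared with other genes, among them Gstp2 and Gstp-ps. Summed over these 3 genes the level was 381.7, 403.1 and 360.6 FPKM in morphine, against 313.1, 301.6 and 280.7 FPKM in saline, a ratio of 1.28. The difference was thus about the same when the copies were summed. For Gstm1, 23.1% of the words are shared, and its sum with Gstm2-ps1 gave the same ratio of 1.38.

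Gstm5, a mu class enzyme, was the steadiest of the 53 genes within a group, with 189.8, 194 and 192 FPKM in morphine, against 172, 172 and 177 FPKM in saline. It was higher in every morphine library by a log2 fold change of 0.14, with an adjusted p of 0.126. Mgst3, a microsomal transferase that also reduces lipid peroxides, stood at 88.5, 100.2 and 91.9 FPKM in morphine, against 85.4, 79.9 and 76.0 FPKM in saline. It did not overlap and had a log2 fold change of 0.215 and an adjusted p of 0.138. Gstz1, the zeta class enzyme of tyrosine breakdown, was the remaining transferase whose groups lay apart, at 32.0 to 33.0 FPKM in morphine and 29.2 to 30.5 FPKM in saline, with an adjusted p of 0.249. The 14 other tested transferases overlapped, with adjusted p-values of 0.242 or more, and the widest estimates belonged to genes near 1 to 3 FPKM such as Mgst2, at 0.37 with a standard error of 0.274. Gstp2, the least certain, rested on 3 to 16 estimated fragments per library.

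**Figure D3:**
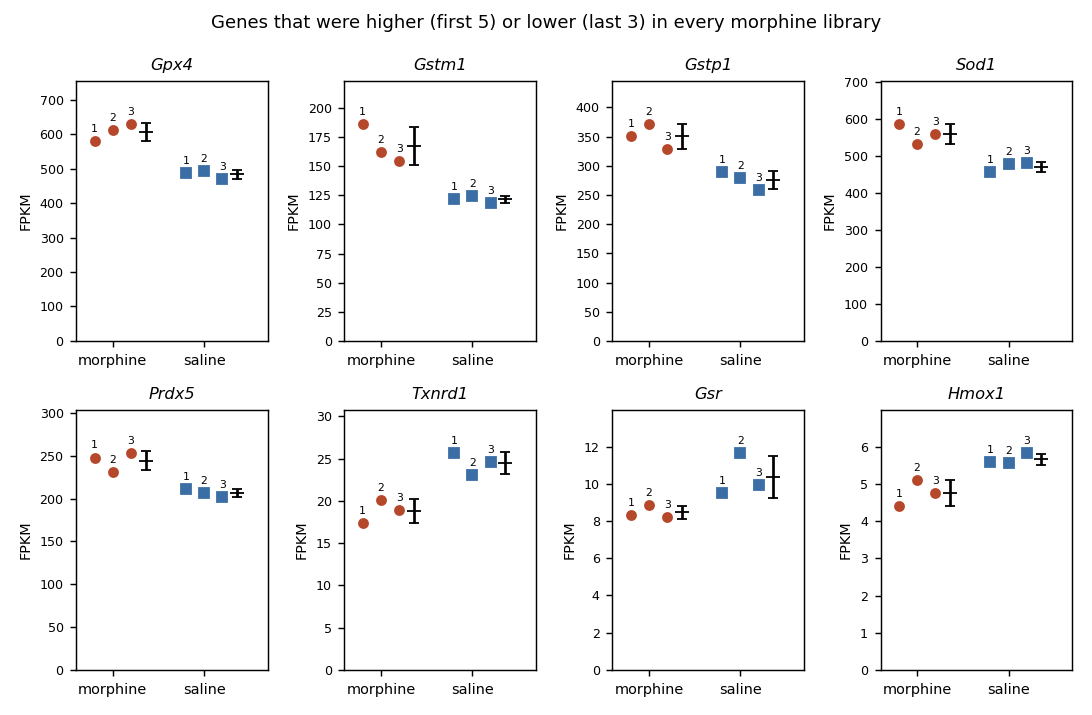
FPKM per library for 8 genes whose groups did not overlap, with morphine (circles) left of saline (squares), library numbers above the points, and bars for mean and SD (n = 3 each); each axis starts at 0. Gpx4, Gstm1, Gstp1, Sod1 and Prdx5 lie higher in every morphine library and Txnrd1, Gsr and Hmox1 lower, and only Gpx4 and Gstm1 passed the adjusted test.

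Of the superoxide dismutases, Sod1, the cytosolic copper-zinc enzyme, stood at 585, 531 and 557 FPKM in morphine, against 455, 477 and 480.4 FPKM in saline. All morphine libraries were higher, with means of 558 ± 27.1 FPKM in morphine and 471 ± 13.6 FPKM in saline (SD, n = 3 each). The log2 fold change was 0.24 and the adjusted p 0.0671. Sod2, the mitochondrial manganese enzyme, overlapped throughout, at 61.5, 57.0 and 64.9 FPKM in morphine and 62.1, 57.9 and 68.2 FPKM in saline, with an adjusted p of 0.820. Sod3, the extracellular enzyme, stood near 4 FPKM, and its adjusted p was 0.487. Catalase (Cat), which breaks down hydrogen peroxide in peroxisomes, stood at 36.5, 44.5 and 38.3 FPKM in morphine and 47.5, 45.9 and 40.5 FPKM in saline, with overlap and an adjusted p of 0.356. None of the 4 passed the adjusted threshold, and Sod1 was the single one with an unadjusted limma p under 0.05.

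The peroxiredoxins, thiol peroxidases that use thioredoxin, had log2 fold changes on both sides of 0, from -0.10 for Prdx1 to 0.24 for Prdx5. Of 7 genes with Srxn1, which restores peroxiredoxins that have been over-oxidised, 0 passed the adjusted limma threshold and 2 were higher at an unadjusted p under 0.05. Their median log2 fold change was 0.02 (-0.107 in TPM). The 7 genes summed to 1129 ± 49.0 FPKM in morphine and 1039 ± 51.4 FPKM in saline (SD, n = 3 each), with every morphine library higher. Prdx2, a cytosolic form abundant in neurons and red cells, stood at 343, 327 and 319 FPKM in morphine, against 298, 285 and 261 FPKM in saline. It was higher in every morphine library, with a log2 fold change of 0.23 and an adjusted p of 0.0969, while the summed level of red cell markers was lower in every morphine library. Of the 5 tested red cell markers, the 4 globin genes had an unadjusted limma p under 0.05 in the lower direction, against 11.1% of all tested genes. Alas2 overlapped between groups. The globin gene Hbb-bt fell to 23.7, 27.9 and 32.2 FPKM in morphine, against 58.9, 56.0 and 82.8 FPKM in saline, with a log2 fold change of -1.20 and an adjusted p of 0.0453. Slc4a1, an untested marker of the list, was near 0. The part of red cells in the level of Prdx2 was not tested.

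Prdx5, found in mitochondria, peroxisomes and cytosol, stood at 248, 231 and 253 FPKM in morphine, against 211, 206 and 202 FPKM in saline. It did not overlap, with a log2 fold change of 0.24 and an adjusted p of 0.0662. Prdx3, the mitochondrial form, and Prdx4, that of the endoplasmic reticulum, gave log2 fold changes of -0.01 and 0.02. Srxn1 stood at 39.6 to 42.6 FPKM in morphine and 40.0 to 48.8 FPKM in saline, with an adjusted p of 0.392. Prdx2 and Prdx5 overlap exons of genes on the opposite strand, Junb and Rnaseh2a for Prdx2 and Trmt112 for Prdx5, and the labels do not say whether counting used strand.

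The thioredoxins, their reductases and the glutaredoxins held the largest downward estimate of the 53 genes and 4 upward ones at an unadjusted limma p under 0.05. The 4 were Txn1 and the glutaredoxins Glrx, Glrx2 and Glrx5, and 0 of the 9 genes passed the adjusted threshold. Txnrd1 (ENSMUSG00000020250, mm10 chr10:82833951-82897712, plus strand), the cytosolic selenium reductase that renews thioredoxin, stood at 17.3, 20.1 and 18.9 FPKM in morphine 1 to 3, against 25.6, 23.05 and 24.6 FPKM in saline 1 to 3. Every morphine library was below every saline library, with means of 18.8 ± 1.39 FPKM in morphine and 24.4 ± 1.30 FPKM in saline (SD, n = 3 each). The log2 fold change was -0.365 with a standard error of 0.077, a 95% interval of -0.55 to -0.18 and an adjusted p of 0.0616. Txnrd2, the mitochondrial reductase, and Txnrd3, the testis-type reductase, overlapped between groups, with adjusted p-values of 0.731 and 0.915.

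Txn1, the cytosolic thioredoxin that Txnrd1 serves, stood at 51.4, 55.3 and 48.4 FPKM in morphine, against 47.2, 45.6 and 45.4 FPKM in saline. Every morphine library was higher, with a log2 fold change of 0.16 and an adjusted p of 0.205. Txn2, the mitochondrial thioredoxin, stood at 90.2, 99.5 and 100.3 FPKM in morphine, against 86.6, 87.6 and 88.7 FPKM in saline, also without overlap and with an adjusted p of 0.225. The thioredoxins thus had estimates above 0 while their cytosolic reductase had one below 0, and none of the 3 differences passed the adjusted threshold.

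Glutaredoxins, which use glutathione to reduce protein disulfides or to carry iron-sulfur clusters, had log2 fold changes above 0 except Glrx3. Glrx, the cytosolic disulfide form, stood at 76.8, 77.4 and 80.5 FPKM in morphine, against 68.2, 69.4 and 73.6 FPKM in saline, without overlap and with an adjusted p of 0.171. Glrx5, the mitochondrial cluster carrier, stood at 56.6, 55.4 and 65.6 FPKM in morphine, against 51.6, 43.8 and 51.1 FPKM in saline, also without overlap, with a log2 fold change of 0.27 and an adjusted p of 0.150. Glrx2, a mitochondrial and cytosolic form, stood at 95.2, 77.0 and 98.1 FPKM in morphine and 72.2, 72.2 and 81.0 FPKM in saline. Its morphine 2 library lay inside the saline range, and the adjusted p was 0.205. Glrx3, a cytosolic iron-sulfur carrier, stood at 64.2 to 68.9 FPKM in morphine and 71.0 to 74.2 FPKM in saline, without overlap, with an adjusted p of 0.236.

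Many members overlapped between groups, and in some of them libraries of one group also differed. Of these, Gclm, Nfe2l2, Cat, Prdx1 and Prdx6 are described further, chosen after their values were seen for being highest in morphine 2 among the morphine libraries and lowest in saline 3 among the saline libraries. Prdx1, a cytosolic peroxiredoxin known as an NRF2 target, stood at 186, 247 and 195 FPKM in morphine and 226, 233 and 208 FPKM in saline, with an adjusted p of 0.640. Prdx6, a peroxiredoxin that uses glutathione and is known in astrocytes, stood at 223, 268 and 215 FPKM in morphine and 232, 219 and 192 FPKM in saline, with an adjusted p of 0.487. The same order was found in 14 of the 53 genes (26.4%, against 16.5% of all tested genes), Nqo1, Gss, Gstm7 and Gstp1 among them. The opposite order, lowest in morphine 2 and highest in saline 3, was found in 9 of the 53 (17.0%, against 27.2% of all tested genes), Sod1, Sod2, Keap1 and Glrx2 among them.

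Markers of several cell types also differed between libraries of one group, and they are given here beside these genes as a description. The mean log2(FPKM + 1) of motor and cholinergic neuron markers was 2.47, 3.67 and 1.74 in morphine 1 to 3, against 3.80, 3.68 and 2.13 in saline 1 to 3. The choline transporter Slc5a7 stood at 4.62, 18.3 and 1.86 FPKM in morphine and 22.85, 20.4 and 3.70 FPKM in saline. Of the 7 tested markers on that list 0 passed the adjusted limma threshold and 0 had an unadjusted p under 0.05. Oligodendrocyte markers summed to 19081.7, 23936.0 and 17588.6 FPKM in morphine and 21260.1, 22386.8 and 15293.6 FPKM in saline. Astrocyte markers summed to 2636.5, 3061.0 and 2559.3 FPKM in morphine and 2749.5, 2706.8 and 2305.5 FPKM in saline. All 3 lists were highest in morphine 2 among morphine libraries and lowest in saline 3 among saline libraries. The summed markers of neurons, endothelium and pericytes, meningeal fibroblasts and Schwann cells had the same order. Those of microglia, red cells, ependyma and choroid plexus did not, and single markers could also depart from it, as Aldoc of the astrocyte list did. Schwann cell markers, which stand for nerve root tissue, summed to 99.0, 268.1 and 53.1 FPKM in morphine and 164.7, 286.8 and 128.4 FPKM in saline. The part of these cell types in the levels of the antioxidant genes was not tested. With the motor neuron mean as a covariate, 7 members passed the limma threshold, all higher: Gpx4, Gstm1, Gstp1, Mgst3, Prdx2, Prdx6 and Sod1. In that fit 905 of all 14614 tested genes passed, against 220 without the covariate.

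**Figure D4:**
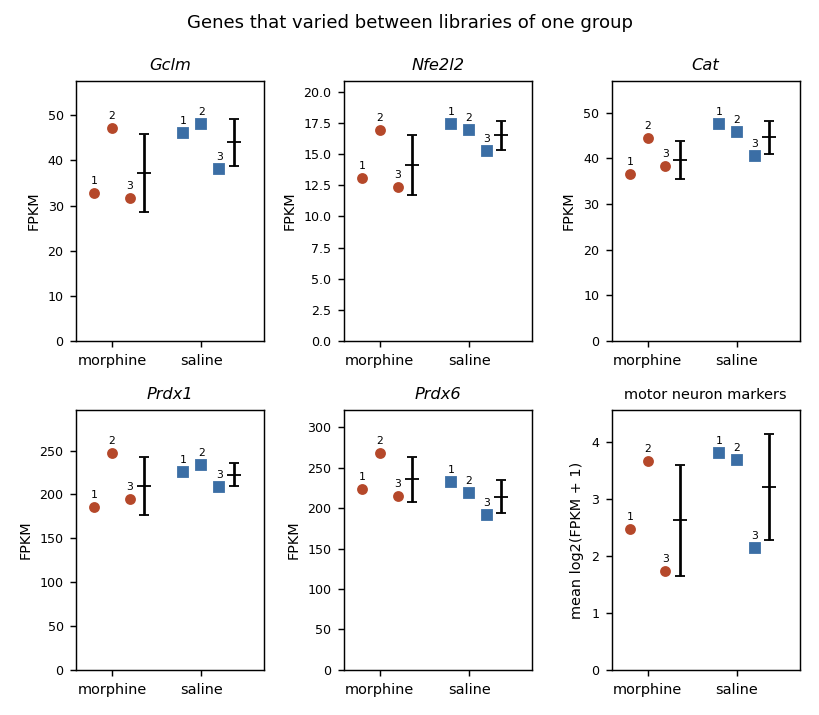
FPKM per library for Gclm, Nfe2l2, Cat, Prdx1 and Prdx6, and the mean log2(FPKM + 1) of motor and cholinergic neuron markers, with morphine (circles) left of saline (squares) and bars for mean and SD (n = 3 each). Morphine 2 is the highest morphine library in all 6 panels and saline 3 the lowest saline library, and each gene overlaps between the groups.

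Endothelium and pericyte markers lay lower in morphine at an unadjusted limma p under 0.05 in 6 of 11 genes, against 11.1% of all tested genes. Of the 11, 0 passed the adjusted threshold. Cldn5 of this list went the other way, with a log2 fold change of 0.11 and overlapping groups. Their summed level was 131.5, 158.6 and 142.1 FPKM in morphine and 158.6, 167.1 and 152.0 FPKM in saline. None of the 11 was at 0, and their part in the lower values of Txnrd1, Gsr and Hmox1 was not tested.

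Gene length moved with the fold change across the whole table. Over 14588 tested genes with an annotated length, the Spearman correlation of log2 fold change with exonic length was -0.31, and over the 53 antioxidant genes it was -0.269, a description across genes that share the same 6 libraries. The antioxidant genes are short, with a median exonic length of 2613 nt against 4170.5 nt for all. Among the shortest genes, up to 2975 nt, the median log2 fold change was 0.10 for the 30 antioxidant genes and 0.09 for all genes. Among genes of 2976 to 5619 nt it was 0.10 for 17 antioxidant genes and -0.03 for all, and among the longest, from 5621 nt, it was -0.14 for 6 antioxidant genes, Txnrd1 and Slc7a11 among them, and -0.075 for all. With the length trend removed, 29 of the 53 were above 0, and 0 passed the adjusted limma threshold, with 12 higher and 3 lower at an unadjusted p under 0.05. Over all tested genes 34 passed the adjusted threshold in that fit. Gpx4 then had a log2 fold change of 0.23 with an adjusted p of 0.0875, and Gstm1 0.34 with an adjusted p of 0.0836.

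**Figure D5:**
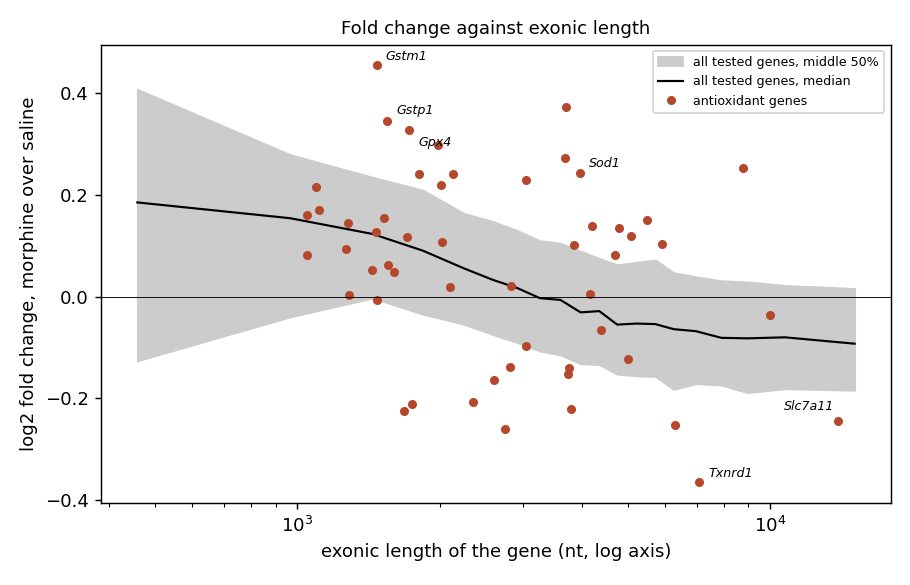
Log2 fold change of morphine over saline against exonic length (nt, log axis) for the 53 antioxidant genes (points), with the median (line) and the middle 50% (band) of all tested genes in windows of length. The line runs from above 0 for short genes to below 0 for long ones, with Gstm1, Gstp1 and Gpx4 at the short end and Txnrd1 and Slc7a11 at the long end.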

How the data were processed

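Lumbar cord RNA of 3 morphine and 3 saline libraries was made into libraries with a stranded kit, per the labels' protocols. Per the submitters' processing notes, the tools were RSEM, STAR, Trimmomatic and bcl2fastq 2.19.0, on mm10. Neither the annotation nor any use of strand in counting is stated there. Deposited values are FPKM computed by the authors, with 2 decimals. A gene was tested if 3 or more of the 6 libraries had 1 FPKM or more. The test ran on log2(FPKM + 1) with limma 3.58.1 (R 4.3.3), two-sided, with an intensity trend and Benjamini-Hochberg adjustment over 14614 genes at a threshold of 0.05. FPKM is not a count, so no count model was used. Fold changes on this scale understate those of low genes.

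Depth was estimated as the number of fragments at which low FPKM values came closest to whole fragments. At these depths 77.0% to 79.7% of such values were within 0.05 of a whole number, or within the rounding of the table, against 12.7% to 16.9% for evenly spread values, with fragment lengths of 216 to 221 nt. Lengths, coordinates and the 50-base words shared between genes came from GENCODE M21 (mm10). Promoters came from RefSeq. The fit was tested on simulated data. Members, gene lists and tests were chosen with earlier results of these data known. Values in all 6 libraries were given for members at an unadjusted p under 0.05 and for the 2 highest members of each role, and from each pathway list the called genes or, with none called, up to 2 with the smallest p were named.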

Additional observations from a re-analysis of the deposited data

How the results depend on the processing

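Against 220 genes called, other settings called 8 without the filter on low values, 338 with a filter of 5 FPKM, 954 in TPM (101 higher, 853 lower), 102 after quantile normalization, 540 with median-of-ratios size factors, 36 without the intensity trend, 24 with the replicate number as a block, 34 with the length trend removed and 905 with the motor neuron covariate. Leaving out 1 library gave 1 to 805, with 805 without morphine 2, 8 without saline 2, 2 without saline 3 and 1 without each of the others. Against 2 antioxidant genes called, the count was 4 with median-of-ratios factors (Gpx4, Gstm1, Prdx5, Sod1), 7 with the covariate, 3 in TPM (Gstm1 higher, Txnrd1 and Glrx3 lower) and 3 with the 5 FPKM filter, which added Gstp1. It was 0 in limma without the filter, after quantile normalization, without the trend, with the block and with the length trend removed, where 14, 5, 10, 15 and 12 members were higher and 5, 3, 3, 4 and 3 lower at an unadjusted p under 0.05. Without morphine 2 it was 6, adding Txnrd1 as lower and Prdx5, Sod1 and Glrx2 as higher, and without any other single library it was 0. Gpx4 kept its call under 6 of 17 alternatives (adjusted p 0.0362 to 0.172, log2 fold change 0.16 to 0.36) and Gstm1 under 7 of 17 (adjusted p 0.0366 to 0.153, log2 fold change 0.33 to 0.51), and neither changed direction. Deviations of same-numbered libraries correlated at -0.129, 0.161 and 0.295, and those of differently numbered libraries at -0.341 to 0.238. With 3 libraries per group these values cannot settle whether the replicate numbers pair the libraries. With the block in limma, Gpx4 had an adjusted p of 0.0559 and Gstm1 of 0.0523.

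In TPM the median over all tested genes was -0.132 on the log2 scale, and that of the antioxidant genes became -0.033. Of the 53 genes 14 changed sign in TPM: Gpx1 (-0.074), Gss (-0.018), Keap1 (-0.043), Nqo1 (-0.046), Gpx7, Gpx8, Gsta4, Gstm7, Gsto1, Gstt2, Gstt3, Gstz1, Prdx4 and Txnrd3. With the length trend removed 9 did: Gpx1 (-0.059), Nqo1 (-0.043), Sod2 (0.043), Gpx7, Gpx8, Gsta4, Gstm7, Prdx4 and Txnrd3. After quantile normalization Gpx1 did (-0.001), and outside the 53 so did Ptges3 in TPM (-0.001). Leaving out 1 library moved Nqo1 between -0.058 and 0.164 and Sod2 between -0.092 and 0.024. The cause was not tested. Hmox1 and Nqo1, at 104 to 196 estimated fragments per library, and Gstp2, at 3 to 16, are limited by depth.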

Other observations

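The other genes of these pathways were taken from 6 lists. Their counts stand beside those of all 14614 tested genes, of which 0.944% rose and 0.561% fell at the adjusted limma threshold. At an unadjusted limma p under 0.05, 11.2% of all tested genes were higher and 11.1% lower. Of the 25 tested genes of other thioredoxin and selenium functions, 1 rose, 0 fell and 4 were higher at an unadjusted limma p under 0.05, with a median log2 fold change of 0.00. The one that rose was Selenow, a small selenoprotein of the thioredoxin fold, at 443, 449 and 463 FPKM in morphine, against 366, 368 and 378 FPKM in saline. Its groups lay apart, with a log2 fold change of 0.285 and a limma adjusted p of 0.0462. Of the 16 tested genes that make superoxide or serve other defences, 1 rose, 0 fell and 4 were higher and 1 lower at an unadjusted p under 0.05, with a median of -0.045. The one that rose was Mt3, the metallothionein of brain, at 914, 905 and 876 FPKM in morphine, against 722, 699 and 658 FPKM in saline. It was higher in every morphine library, with a log2 fold change of 0.375 and a limma adjusted p of 0.0456. Mt1 and Mt2, the widely expressed metallothioneins, were named after their values were seen, with larger log2 fold changes of 0.65 and 0.62 that missed the threshold (limma adjusted p 0.0713 and 0.0929). Selenow kept its call under 6 of 17 alternatives and Mt3 under 7 of 17.

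In the other 4 lists 0 genes passed the adjusted limma threshold. Among 17 tested genes of glutathione precursors and breakdown, 1 was higher and 2 were lower at an unadjusted p under 0.05, with a median log2 fold change of -0.04. Hagh, a glyoxalase that releases glutathione, averaged 94.0 ± 7.53 FPKM in morphine and 78.1 ± 4.47 FPKM in saline (SD, n = 3 each; limma adjusted p = 0.108). Among 15 other glutathione and MAPEG enzymes none had an unadjusted limma p under 0.05. The smallest were those of Ptges3, a prostaglandin E synthase and HSP90 cochaperone, at 106 FPKM in morphine and 96.5 FPKM in saline (adjusted p 0.233), and of the chloride channel gene Clic4, at 55.7 FPKM in morphine and 65.3 FPKM in saline (adjusted p 0.287).

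Among 14 tested partners and repressors of NRF2, 3 were higher and 3 lower at an unadjusted limma p under 0.05, with a median of -0.12. Sqstm1 (p62), the autophagy receptor that sequesters KEAP1, averaged 388 ± 27.6 FPKM in morphine and 315 ± 7.74 FPKM in saline (SD, n = 3 each; limma adjusted p = 0.0627). Rbx1, the ring subunit of cullin ligases, averaged 103 ± 1.91 FPKM in morphine and 91.6 ± 1.94 FPKM in saline (SD, n = 3 each; limma adjusted p = 0.105). Among 21 tested genes of other NRF2 targets and NADPH supply, 3 were higher and 0 lower at an unadjusted limma p under 0.05, with a median of 0.03. Idh2, the mitochondrial NADP isocitrate dehydrogenase, averaged 33.9 ± 1.29 FPKM in morphine and 25.6 ± 2.60 FPKM in saline (SD, n = 3 each; limma adjusted p = 0.0616). Nnt, which makes mitochondrial NADPH, averaged 7.03 ± 1.42 FPKM in morphine and 4.16 ± 1.15 FPKM in saline, with every morphine library higher (SD, n = 3 each; limma adjusted p = 0.117).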
